A study of Mus musculus with 6 samples.

Results

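The genes analysed here are 10 apolipoprotein genes of the mouse liver, Apoa1, Apoa2, Apoa4, Apoa5, Apob, Apoc1, Apoc3, Apoe, Apoh and Apom, which were taken by name as the main apolipoproteins that hepatocytes secrete. All 10 were among the 28880 genes of the deposited table, and all 10 passed the filter on low counts that left 16717 genes for testing. The RNA-seq libraries came from the livers of 3 mice given acute ethanol and 3 controls, all male, wild type, C57BL/6J, 6 to 8 weeks of age and of 1 labelled batch. The exposed mice were fasted for 12 h, received 50% ethanol once by mouth at 6 g/kg, and gave liver tissue 24 h after the dose. Control mice received no ethanol. Whether control mice were also fasted or given a vehicle is not given in the sources used here, so a part of fasting or of the oral dosing itself in any difference was not tested.

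Apolipoproteins are the proteins of lipoprotein particles, which carry triglyceride and cholesterol through the blood. They hold the particle together, activate or block the enzymes that remove its lipid, and bind the receptors that clear it. The liver makes most of them and builds its triglyceride-rich VLDL around 1 molecule of apolipoprotein B, while apolipoproteins A-I and A-II are the main proteins on the surface of HDL.

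Levels are given as FPKM, the authors' values per kilobase of transcript and per library total, the only scale here on which different genes were compared. Changes between the groups are log2 fold changes of counts, ethanol minus control, after scaling by TMM, a method of edgeR that sets libraries level on the bulk of their genes. A gene is said to have risen or fallen where the Benjamini-Hochberg adjusted p of edgeR's quasi-likelihood test was under 0.05, and is called a DEG where its log2 fold change also passed 1 in either direction. Libraries held 60514417 to 74210869 counts on genes, and single members held from 7798 counts (Apoa4, control replicate 1) to 1218917 (Apoe, ethanol replicate 1), so the spread between 3 mice per group and not the depth limits the precision.

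The choice of scaling moves the fold changes below. TMM factors were 0.768 to 0.836 in the ethanol-exposed and 1.26 to 1.27 in the control libraries, and the median log2 fold change over all genes was -0.04 with TMM and -0.71 with library size alone. FPKM follows library size, so a gene can lie level in FPKM and still have risen in TMM-normalised counts. Since a change of scaling shifts all genes of a library alike, the distance of the members to the median gene does not test it, and the median of the 10 members stood 0.91 above that of all genes with TMM. It stood 0.71 above it once the trend of fold change with transcript length was removed, and 0.78, 0.62 and 0.25 above it with limma on log2(FPKM + 0.1), on log2(FPKM + 1) and on the latter without a filter on low values.

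Hepatocyte markers were abundant in every library, with a summed level of 40299 to 45525 FPKM in ethanol-exposed and 37089 to 43197 FPKM in control mice, and 7 of the 9 markers tested rose and 0 fell, of which 2 were DEGs. Their median log2 fold change of 0.69 lay close to that of the 10 members (0.86), with 0.82 for Alb, the albumin gene, and with library size alone it was 0.02. Markers of enterocytes, the other main source of apolipoproteins A-I, A-IV and B, summed to 32.5 to 61.7 FPKM after ethanol and to 53.0 to 55.0 FPKM in controls. Of the 5 tested, 2 rose, Fabp2 (log2 0.59, adjusted p = 0.042) and Apobec1, a DEG that is described again below, and with library size alone 0 rose and Fabp2 had -0.07. Nearly all of the enterocyte sum came from Fabp2 (means of 22.8 FPKM after ethanol and 23.9 in controls), Anpep (18.0 and 24.1) and Apobec1 (10.1 and 5.89). Whether the reads of these genes came from enterocytes was not tested. Vil1 averaged 0.049 and 0.0436 FPKM, Cdx2 was at 0 in all 6 libraries, and Alpi and Sis were not analysed here. Kupffer cell markers summed to 54.6 to 68.8 FPKM after ethanol and 94.2 to 105 FPKM in controls, and of the 10 markers 0 were DEGs, 2 fell (Csf1r by 0.71 and Clec4f by 0.37 on the log2 scale) and 0 rose, while 8 fell with library size alone. Monocyte and neutrophil markers summed to 15.7, 14.2 and 736 FPKM in ethanol replicates 1 to 3 and to 2.11 to 4.54 FPKM in controls, most of the value of ethanol replicate 3 being Lcn2 at 724 FPKM. Of these 6 markers 3 were upregulated DEGs (S100a8, S100a9 and Lcn2) and 1 downregulated (Ccr2), while Ly6c2 and Csf3r did not pass the test. In ethanol replicate 3 S100a8 lay at 3.02, S100a9 at 8.52 and Csf3r at 0.568 FPKM. Which cells held the Lcn2 reads was not tested. Of 6 endothelial markers 1 was an upregulated DEG (Lyve1, log2 3.59) and 2 were downregulated (Kdr, -1.57, and Oit3, -1.30), with a median of -0.62. Of 5 cholangiocyte markers 1 was upregulated (Sox9, 2.78) and 0 downregulated (median -0.20), and of 6 stellate cell markers 0 were DEGs and 3 rose (median 0.30), whereas with library size alone 0 rose, 2 fell and the median was -0.36. The part of these cells in the results was not tested, and in bulk tissue fewer cells of a type and less RNA per cell cannot be told apart.

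Of the 10 genes, 9 rose with TMM scaling and 0 fell, and Apob alone did not pass the test. Of all genes tested, 21.5% rose and 21.5% fell. With the threshold on fold change, 3 members (Apoa1, Apoa4 and Apoa5) were upregulated DEGs, beside 10.4% of all genes, and 0 were downregulated, beside 13.8%. With library size alone, 3 members rose (again Apoa1, Apoa4 and Apoa5), beside 7.39% of all genes, and 1 fell (Apob), beside 48.3%. In TMM-normalised CPM (counts scaled to the library total times its TMM factor) the ethanol-exposed libraries all lay above the control libraries for 9 members, beside 28.0% of all genes. In FPKM they did so for 5 members (Apoa1, Apoa2, Apoa4, Apoa5 and Apoc1), beside 9.45% of all genes, and lay below for 1, Apob, beside 57.4%.

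**Figure D1:**
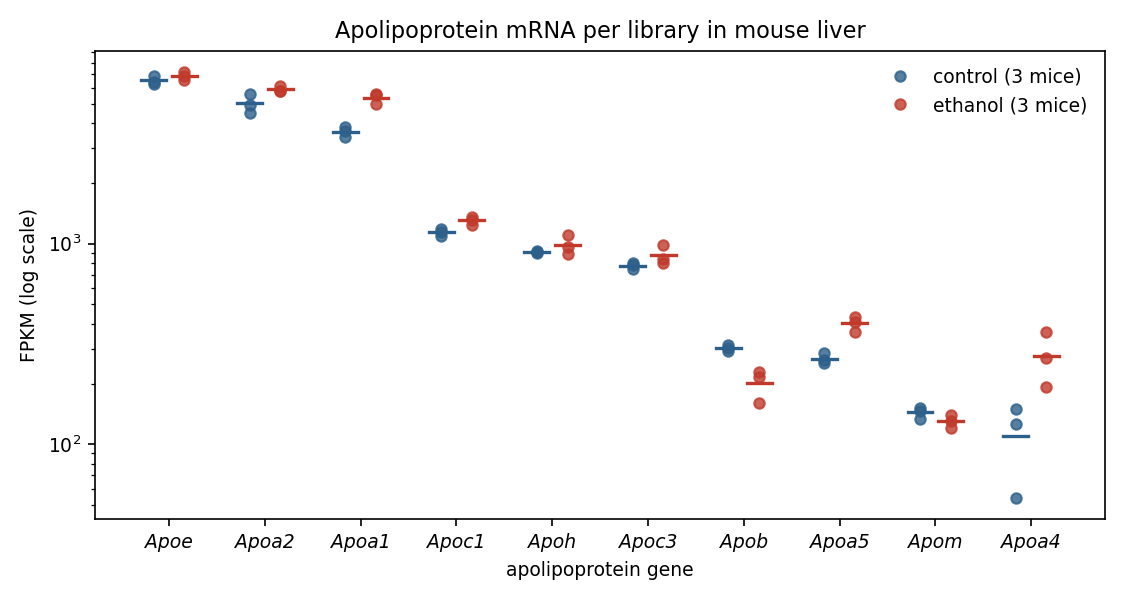
Level of each apolipoprotein gene in FPKM (log scale) in the 3 control and 3 ethanol-exposed libraries, with points for libraries and bars for group means. Apoe, Apoa2 and Apoa1 lie at the top in every library, and the groups are apart for Apoa1, Apoa2, Apoa4, Apoa5 and Apoc1 (higher after ethanol) and for Apob (lower on this scale, though not with TMM scaling).

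In control liver the order of the levels in FPKM was Apoe, Apoa2, Apoa1, Apoc1, Apoh, Apoc3, Apob, Apoa5, Apom and Apoa4. The ranges of neighbours in that order overlapped only for Apom and Apoa4. Apoe ranked 6 among all genes in control liver and 12 after ethanol, Apoa2 ranked 15 in both, and Apoa1 moved from 27 to 17. After ethanol the lower end of the order changed to Apoc3, Apoa5, Apoa4, Apob and Apom, with overlapping ranges for Apoh and Apoc3, for Apoa5 and Apoa4, and for Apoa4 and Apob. Apoa4 moved from rank 386 to 185 and Apoa5 from 172 to 140, whereas Apob moved from 152 to 230 and Apom from 301 to 323.

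Apoa1 encodes apolipoprotein A-I, the scaffold of HDL and the activator of the enzyme LCAT. Its level was 5488, 4979 and 5606 FPKM in ethanol replicates 1 to 3, and 3813, 3407 and 3629 FPKM in control replicates 1 to 3. All 3 ethanol-exposed libraries stood above all 3 controls, with means of 5358 ± 333 and 3616 ± 203 FPKM (SD, n = 3 each). The rise in TMM-normalised counts was 2.37-fold (log2 1.24 ± 0.13, standard error; edgeR's quasi-likelihood test, adjusted p = 0.000549). With library size alone the log2 fold change was 0.57 (adjusted p = 0.00538), so the rise remained but no longer passed the fold threshold.

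Apoa2 encodes the second protein of HDL. It lay at 6126, 5755 and 5781 FPKM after ethanol and at 5606, 4476 and 4945 FPKM in controls. The groups did not overlap, but the gap between the lowest ethanol-exposed and the highest control library was small beside the control spread (SD 568, n = 3). The rise was 1.88-fold with TMM (log2 0.91 ± 0.13, adjusted p = 0.00187), or 0.52 with the trend with transcript length removed (adjusted p = 0.0186), and missed the test with library size alone (0.24, adjusted p = 0.155). Within each library the ratio of Apoa1 to Apoa2 in FPKM, which does not depend on the scaling, was 0.91 ± 0.0539 after ethanol and 0.725 ± 0.0412 in controls (SD, n = 3; exact permutation test, two-sided, p = 0.10, the smallest that 3 against 3 can give, and 0.167 after adjustment over 5 ratios).

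Apom encodes a lipocalin carried on HDL that binds sphingosine-1-phosphate. Its level was 140, 131 and 120 FPKM after ethanol and 146, 152 and 134 FPKM in controls, and the groups overlapped. In TMM-normalised CPM it lay at 196, 169 and 170 against 125, 130 and 116, with no overlap. The rise of 1.44-fold (log2 0.53 ± 0.11, adjusted p = 0.0077) changed sign with library size alone (-0.14, adjusted p = 0.327), where it missed the test, and was 0.31 with the length trend removed (adjusted p = 0.0389).

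Apoa4 encodes apolipoprotein A-IV, a protein of chylomicrons, VLDL and HDL that is also known as a fasting-responsive gene of mouse liver. It lay at 364, 270 and 193 FPKM after ethanol and at 54.2, 150 and 126 FPKM in controls. The highest control library stayed below the lowest ethanol-exposed one, while the libraries of each group were more widely spread relative to their mean than those of any other member, with means of 276 ± 85.4 and 110 ± 50.0 FPKM. It had the largest fold change of the 10 genes, 3.99-fold with TMM (log2 2.0 ± 0.40, adjusted p = 0.00702) and a log2 fold change of 1.33 with library size alone (adjusted p = 0.0227), which passed both thresholds. With limma on log2(FPKM + 1) without a filter, the log2 fold change of Apoa4 was 1.39 and did not pass the test (limma, adjusted p = 0.0801). Leaving out control replicate 1, the lowest library, brought the TMM value to 1.66, and leaving out control replicate 2, the highest of the controls, brought it to 2.28.

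Apoa5 encodes apolipoprotein A-V, a low-abundance protein of plasma that promotes the hydrolysis of triglyceride by lipoprotein lipase. It lay at 407, 432 and 363 FPKM after ethanol and at 284, 263 and 253 FPKM in controls. The groups were apart, and Apoa5 rose 2.39-fold with TMM (log2 1.26 ± 0.11, adjusted p = 0.000289), a fold change near that of Apoa1. Its log2 fold change with library size alone was 0.59 (adjusted p = 0.00516).

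Apoc3 and Apoc1 encode small proteins that slow the removal of triglyceride-rich particles. Apoc3 lay at 842, 800 and 990 FPKM after ethanol and at 744, 779 and 800 FPKM in controls, so the groups met at their edge. Apoc1 lay at 1364, 1242 and 1312 FPKM after ethanol and at 1178, 1090 and 1150 FPKM in controls, without overlap. Both rose with TMM, by 0.86 ± 0.14 for Apoc3 (adjusted p = 0.00285) and 0.87 ± 0.11 for Apoc1 (adjusted p = 0.00136) on the log2 scale, and neither passed the test with library size alone (0.18 and 0.20, adjusted p = 0.247 and 0.157). With the length trend removed Apoc1 rose by 0.57 (adjusted p = 0.00625).

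Apob encodes the structural protein of VLDL and LDL and was the only member that did not rise with TMM scaling. It lay at 216, 230 and 161 FPKM after ethanol and at 292, 312 and 303 FPKM in controls, all 3 ethanol-exposed libraries below all 3 controls. In TMM-normalised CPM it lay at 4145, 4105 and 3138 against 3434, 3683 and 3586, and the groups overlapped, with ethanol replicate 3 below every control. The log2 fold change was 0.09 ± 0.14 with TMM (adjusted p = 0.635) and -0.57 with library size alone (adjusted p = 0.0172). Apob stood close to the median gene, 0.13 above it with TMM, at percentile 55.2 of all fold changes.

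Apoe encodes a ligand by which the liver takes up remnant particles, and it was the most abundant member in all 6 libraries. It lay at 7183, 6902 and 6575 FPKM after ethanol and at 6874, 6259 and 6425 FPKM in controls, and the groups overlapped. In TMM-normalised CPM the ethanol-exposed libraries held 21185, 18912 and 19609 and the controls 12420, 11354 and 11674, and these did not overlap. It rose 1.68-fold with TMM (log2 0.75 ± 0.12, adjusted p = 0.00242) and missed the test with library size alone (0.08, adjusted p = 0.572).

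Apoh encodes a plasma glycoprotein that binds anionic phospholipid and takes part in the control of coagulation. It lay at 966, 1101 and 892 FPKM after ethanol and at 922, 897 and 907 FPKM in controls, with overlap, ethanol replicate 3 being the lowest of the 6. The rise of 1.73-fold with TMM (log2 0.79 ± 0.11, adjusted p = 0.0015) missed the test with library size alone (0.12, adjusted p = 0.429).

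**Figure D2:**
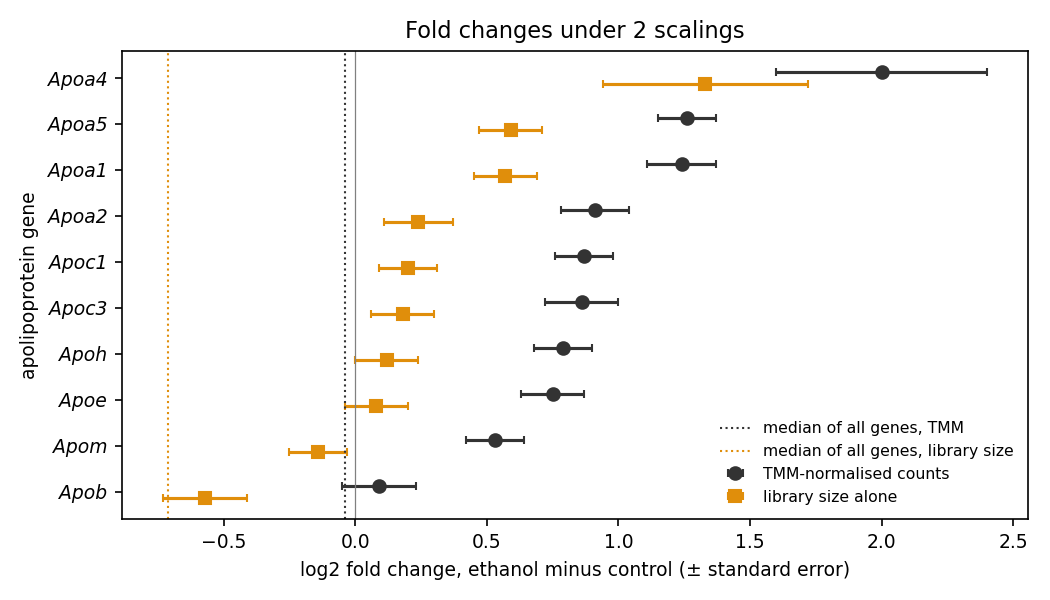
Log2 fold change of each member, ethanol minus control, with its standard error, from TMM-normalised counts (circles) and with library size alone (squares), and dotted lines for the median of all genes under each. All members but Apob lie clear of the TMM median of -0.04, Apoa4 lies farthest to the right under both scalings, and Apob and Apom change sign with library size alone.

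Because a share within a library does not depend on how libraries are scaled to each other, the composition of the summed FPKM of the 10 genes was compared next. The share of Apoa1 was 24.0% ± 1.36 after ethanol and 19.2% ± 0.162 in controls, and the share of Apoe was 30.9% ± 0.877 and 34.7% ± 0.423 (SD, n = 3). The share of Apoa5 was 1.80% ± 0.166 against 1.42% ± 0.0624, and that of Apoa4 was 1.23% ± 0.349 against 0.597% ± 0.294. Apoa1, Apoa4 and Apoa5 thus held a larger share in every ethanol-exposed than in every control library, and Apoe, Apob and Apom a smaller one. The shares of a library are tied to each other, so a larger share of Apoa1 makes those of other genes smaller. The mean level of Apoe itself was 6887 FPKM after ethanol and 6519 FPKM in controls, while the mean levels of Apob and Apom were lower after ethanol. The share of Apob was 0.907% ± 0.161 against 1.61% ± 0.144, and that of Apom 0.584% ± 0.0331 against 0.768% ± 0.0743. Each of these 6 gave p = 0.10 in an exact two-sided permutation test, the smallest p possible, and 0.167 after adjustment over the 10 genes. The shares of Apoa2 (26.4% and 26.6%), Apoc1, Apoc3 and Apoh overlapped between the groups. Taken as shares of summed counts, which weigh long transcripts more, the differences of the 6 genes kept their directions but changed in size, from -0.706 to -5.66 percentage points for Apob, from -3.84 to -1.95 for Apoe, from 0.375 to 0.828 for Apoa5 and from -0.184 to -0.0893 for Apom. Those of Apoa2, Apoc1 and Apoc3 changed sign, from -0.215 to 0.629 for Apoa2, from -0.215 to 0.118 for Apoc1 and from -0.196 to 0.0808 for Apoc3, and that of Apoh went from -0.417 to -0.0754. Without Apoe in the sum, the difference was -2.56 for Apoa2, -1.16 for Apob, -1.01 for Apoh, -0.828 for Apoc1, -0.642 for Apoc3 and -0.332 for Apom. With 1 library left out the difference of Apoa2 ran from -0.934 (without control replicate 2) to 0.56 (without control replicate 1), that of Apoc3 from -0.479 to -0.0516, that of Apoh from -0.724 to -0.232 and that of Apoc1 from -0.291 to -0.132, while the 6 genes whose groups were apart kept their directions.

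The ratio of Apoa1 to Apob in FPKM was 25.5, 21.7 and 34.7 in the ethanol-exposed libraries and 13.1, 10.9 and 12.0 in the controls. Every ethanol-exposed library lay above every control, with means of 27.3 ± 6.68 and 12.0 ± 1.1 (exact permutation test, p = 0.10, adjusted 0.167). The ratio of Apoe to Apob was 34.7 ± 5.48 and 21.6 ± 1.79, also without overlap (exact permutation test, p = 0.10, adjusted 0.167). The trend of fold change with transcript length was not removed from the ratios or the shares. The lengths implied by counts and FPKM were 1322 bases for Apoa1, 2287 for Apoe and 14903 for Apob. The other ratios tested overlapped between the groups, Apoa4 to Apoa1 at 0.0517 ± 0.0161 and 0.031 ± 0.0153 (exact permutation test, p = 0.30) and Apoc3 to Apoa5 at 2.22 ± 0.458 and 2.91 ± 0.273 (exact permutation test, p = 0.20). The summed FPKM of the 10 genes was 22311 ± 684 after ethanol and 18789 ± 1068 in controls, and their share of all counts was 3.47% ± 0.14 and 3.14% ± 0.117. In both measures every ethanol-exposed library lay above every control (exact permutation test, p = 0.10, the smallest possible). As a share of all FPKM they made up 4.62% ± 0.145 and 4.31% ± 0.443, and the groups overlapped (exact permutation test, p = 0.40).

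**Figure D3:**
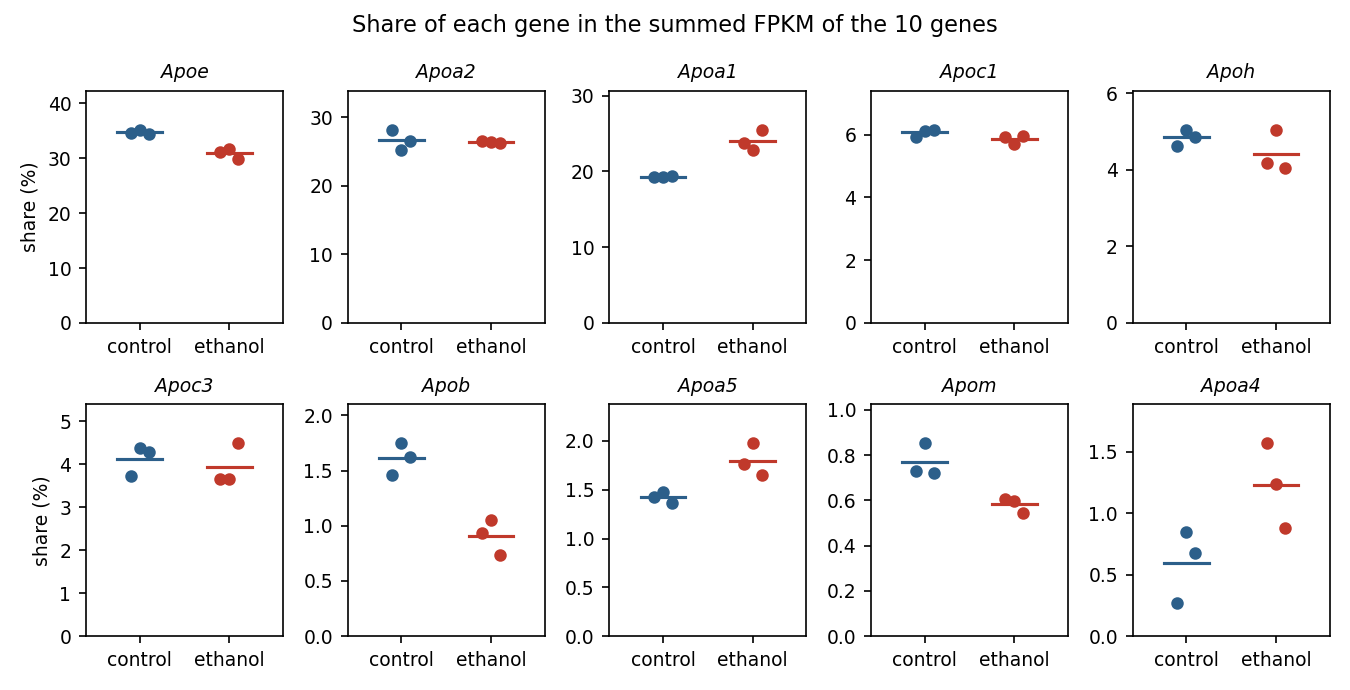
Share (%) of each member in the summed FPKM of the 10 genes, with points for libraries and bars for group means. Points of the groups are apart for Apoa1, Apoa4 and Apoa5 (higher after ethanol) and for Apoe, Apob and Apom (lower), and overlap for the other 4.

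Apoa1, Apoc3, Apoa4 and Apoa5 lie together within 43.3 kb of chromosome 9. In the coordinates of the deposited table, Apoa1 (ENSMUSG00000032083) spans 46139878 to 46141764 on the plus strand, Apoc3 46144231 to 46146934 on the minus strand, Apoa4 46151994 to 46154757 and Apoa5 46179931 to 46183217, both on the plus strand. The 3 DEGs among the members thus share a cluster with Apoc3, which also rose (log2 0.86) but did not pass the fold threshold. The genes that flank it moved as well. Sik3, a kinase gene next to Apoa1, rose by 1.84 (adjusted p = 0.00142), and Zpr1, a zinc finger gene next to Apoa5, rose by 3.03 (adjusted p = 0.00206) on the log2 scale. Bud13, beyond Zpr1, had a log2 fold change of 0.77 and did not pass the test (adjusted p = 0.26).

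Gm47528, a gene model on the strand opposite Apoa4 that overlaps it, held 545, 913 and 175 counts after ethanol and 24, 17 and 41 in controls. Gm10680, a second model opposite Apoa4, held 128, 113 and 1 counts after ethanol and 0 in each control. Apoa4 itself held 52388, 38471 and 26664 counts against 7798, 17656 and 15967. Strand-specific counting is neither stated nor denied in the sources used here, so reads of Apoa4 and these models cannot be told apart, but the models' counts were small beside those of Apoa4. Apoa5 and Apoh also overlap gene models on the opposite strand, Gm47544 with at most 8 counts and Prkca with 297 to 737 counts, far below their own.

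Apoc1 and Apoe lie within 9.71 kb of chromosome 7, Apoc1 at 19423406 to 19426585 and Apoe at 19430034 to 19433113, both on the minus strand, with log2 fold changes of 0.87 ± 0.11 and 0.75 ± 0.12. Apoc2 and Apoc4, beside them, both had a log2 fold change of 0.79, while Apoc2l, which overlaps both on the same strand, had -0.07, so the split of reads among these 3 is uncertain. Of the other neighbours tested, Clptm1 rose by 0.45 (adjusted p = 0.0269). Tomm40 (0.37), Nectin2 (0.38) and Bcam (0.39) did not pass the test (adjusted p = 0.105, 0.0732 and 0.389). With library size alone the log2 fold change of each of these neighbours was below 0. The remaining members stand alone. Apoa2 lies on chromosome 1 at 171052623 to 171053948, Apob on chromosome 12 at 8027648 to 8066835, Apoh on chromosome 11 at 108234180 to 108305222, and Apom on chromosome 17 at 35347973 to 35351026. The submitters' processing notes name GRCm38, but 0 of the 10 members and 558 of 27049 genes (2.06%) start where a GRCm38 annotation from GENCODE places them, so the positions above are the table's own.

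Promoter sequence is shown for the 3 DEGs and for Apob, the members at the ends of the range of changes. The stretches come from RefSeq windows on GRCm38.p6, which hold 250 bases before each start and match 8 of the 10 members, and each stops before the gene start that GENCODE annotates. All 4 genes lie on the plus strand, and capitals mark the letters TATAAA and, in Apoa5, the E-box CACGTG.
Apoa1, chr9:46228380-46228579: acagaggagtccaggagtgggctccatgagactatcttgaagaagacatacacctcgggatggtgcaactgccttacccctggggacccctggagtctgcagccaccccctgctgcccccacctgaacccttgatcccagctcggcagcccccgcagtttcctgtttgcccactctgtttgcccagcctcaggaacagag
Apoa4, chr9:46240594-46240695: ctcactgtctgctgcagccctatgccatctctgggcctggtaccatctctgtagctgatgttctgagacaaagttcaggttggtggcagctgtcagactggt
Apoa5, chr9:46268383-46268632: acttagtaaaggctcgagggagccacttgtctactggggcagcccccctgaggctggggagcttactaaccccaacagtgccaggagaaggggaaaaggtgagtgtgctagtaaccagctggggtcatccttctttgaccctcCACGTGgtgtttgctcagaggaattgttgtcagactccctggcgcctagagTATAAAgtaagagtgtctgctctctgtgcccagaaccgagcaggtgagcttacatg
Apob, chr12:7977427-7977647: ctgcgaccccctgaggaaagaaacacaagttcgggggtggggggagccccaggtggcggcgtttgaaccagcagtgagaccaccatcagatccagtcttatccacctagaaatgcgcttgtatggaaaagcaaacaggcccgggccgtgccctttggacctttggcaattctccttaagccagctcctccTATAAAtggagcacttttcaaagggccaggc

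Sets of letters were searched for on both strands of the whole windows of the 8 members. They were TATAAA (found in 13.6% of all 32851 windows of the same length), the E-box CACGTG (7.15%), the FOX motif GTAAACA (3.65%), the C/EBP motif TTGCNNCAA (2.08%), the CRE TGACGTCA (1.79%), the HNF4 motif CAAAGTCCA (0.475%), a direct repeat of AGGTCA with a spacing of 1 base (0.0396%), and the palindromes of HNF1 and of the glucocorticoid response element (0.00913% each). Counted back from the RefSeq start, Apoa5 held TATAAA at 56 bases and CACGTG at 107 bases, and Apob held TATAAA at 60 bases. The printed stretch of Apob ends at the GENCODE start, 29 bases before the RefSeq one. Apoa2 held TATAAA and the FOX letters, and Apoh the FOX letters. The windows of Apoa1 and Apoa4 held none of these exact letters, which says nothing of whether a factor binds there. Of these windows of 300 bases, only 200 bases for Apoa1 and 102 for Apoa4 lie before the GENCODE start.

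The genes whose profile over the 6 libraries was most like that of Apoa4, among 4096 genes searched, were Sik1, Rdh9 and mt-Tw, at distances of 0.77, 0.78 and 0.79 in centred log2 CPM. Those most like Apob were Tmco1, Gnb1 and Tmem63b, at 0.09, 0.09 and 0.10. The short distances to Apob go with its nearly flat profile.

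Other genes of lipoprotein metabolism were read from 6 lists of 114 genes, of which 110 were tested. Of these, 18 were upregulated and 11 downregulated DEGs, beside 10.4% and 13.8% of all genes tested. The same shares stand beside the counts of each list below. The median log2 fold change of the listed genes was 0.24, beside 0.86 for the 10 members and -0.04 for all genes. With library size alone the median of each of the 6 lists was below 0, while that of the 10 members was 0.19. Every one of these 18 and 11 DEGs kept its direction there, but of the risen genes named next Apobec1, Lpcat3, Gpihbp1, Lcat, Vldlr, Scarb1, Hnf4a and Creb3l3 no longer passed the test.

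Of the other apolipoproteins, 2 of 13 tested were upregulated and 3 downregulated DEGs (median -0.10). Clu, clusterin or apolipoprotein J, lay at 596, 571 and 572 FPKM after ethanol and at 361, 418 and 394 FPKM in controls and rose by 1.24 (adjusted p = 0.000387), close to the change of Apoa1. Apold1, a gene of endothelial cells at under 2 FPKM in every library, rose by 3.83. Apol7a fell by 2.56 and Apol9a by 1.54 on the log2 scale, and the third, Apol9b, named because it is nearly identical to Apol9a and may share its reads, fell by 1.06.

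Of the 25 genes of lipoprotein assembly and secretion, 2 were upregulated and 2 downregulated DEGs (median 0.24). Mttp, which loads lipid onto apolipoprotein B, lay at 30.3, 38.7 and 23.6 FPKM after ethanol and at 40.2, 39.2 and 38.1 FPKM in controls. Its log2 fold change of 0.32 did not pass the test (adjusted p = 0.137), as for Apob. The enzyme that edits Apob mRNA and a cofactor of it moved apart in mRNA level, and editing itself was not tested. Apobec1, the deaminase, rose by 1.43 (adjusted p = 0.00974), with 12.0, 13.1 and 5.13 FPKM against 6.55, 5.93 and 5.18, and ethanol replicate 3 lay below every control on that scale. A1cf, an RNA-binding partner of Apobec1, fell by 1.31 (adjusted p = 0.00397), from 19.2, 13.7 and 14.3 FPKM in controls to 3.7, 5.46 and 2.88 FPKM after ethanol. Lpcat3, which remodels phospholipid, rose by 1.11 on the log2 scale (adjusted p = 0.0201). It lay at 46.7, 43.3 and 19.7 FPKM against 30.3, 25.7 and 24.6, with ethanol replicate 3 again below every control. Svip, which interacts with the degradation machinery of the endoplasmic reticulum, fell by 1.59 on the log2 scale.

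Of the 16 genes that remodel lipoproteins in plasma, 2 were upregulated and 0 downregulated DEGs (median 0.38). Angptl4, an inhibitor of lipoprotein lipase, lay at 70.1, 51.9 and 51.3 FPKM after ethanol and at 28.5, 26.3 and 27.8 FPKM in controls and rose by 1.75 (adjusted p = 0.000342). Gpihbp1, the endothelial anchor of that lipase, rose by 1.07 at low levels. Lcat, which esterifies cholesterol on HDL with apolipoprotein A-I as its activator, rose by 0.80 (adjusted p = 0.000979), and Lipc, hepatic lipase, had 0.24 (adjusted p = 0.216).

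Of the 19 receptor and uptake genes tested, 4 were upregulated and 2 downregulated DEGs (median 0.06). Sdc1, a heparan sulfate proteoglycan that takes up remnants, rose by 1.65, Vldlr rose by 1.27 at under 1 FPKM, and Msr1, a scavenger receptor of macrophages, fell by 1.23 on the log2 scale. Scarb1, the HDL receptor, rose by 0.92 (adjusted p = 0.00169), and Lrp1, a receptor for remnants that bear Apoe, had -0.34 (adjusted p = 0.293) with TMM and fell with library size alone (-1.02, adjusted p = 0.00716).

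Of the 9 genes of cholesterol efflux, 2 were upregulated and 0 downregulated DEGs (median 0.55). Abca1, which passes cholesterol and phospholipid to apolipoprotein A-I, lay at 29.4, 31.2 and 46.4 FPKM after ethanol and at 15.0, 13.2 and 15.6 FPKM in controls, and rose by 1.97 (adjusted p = 0.000626). Abcg5, a subunit of the canalicular sterol exporter, rose by 1.68 (adjusted p = 0.00265). Abcg8, named because it is the other subunit, had 0.56 and did not pass the test (adjusted p = 0.152).

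Of the 28 transcriptional regulators, 6 were upregulated and 4 downregulated DEGs (median 0.43). Cebpb, a bZIP factor of the acute phase and of gluconeogenesis, rose by 3.30, with 374, 401 and 275 FPKM after ethanol and 51.2, 57.7 and 60.8 FPKM in controls. Foxo1, the insulin-restrained forkhead factor, rose by 1.75. Nr0b2, the bile acid-induced repressor SHP, fell by 2.92, and Nr2f2, a nuclear receptor that can repress apolipoprotein promoters, fell by 1.19 on the log2 scale. The nuclear receptor Hnf4a, a main activator of apolipoprotein genes, rose by 0.69 (adjusted p = 0.00243), and Creb3l3, an activator of Apoa4 and Apoa5, rose by 0.74 (adjusted p = 0.00347). Ppara, the fasting-responsive receptor, had 0.51 (adjusted p = 0.122).

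**Figure D4:**
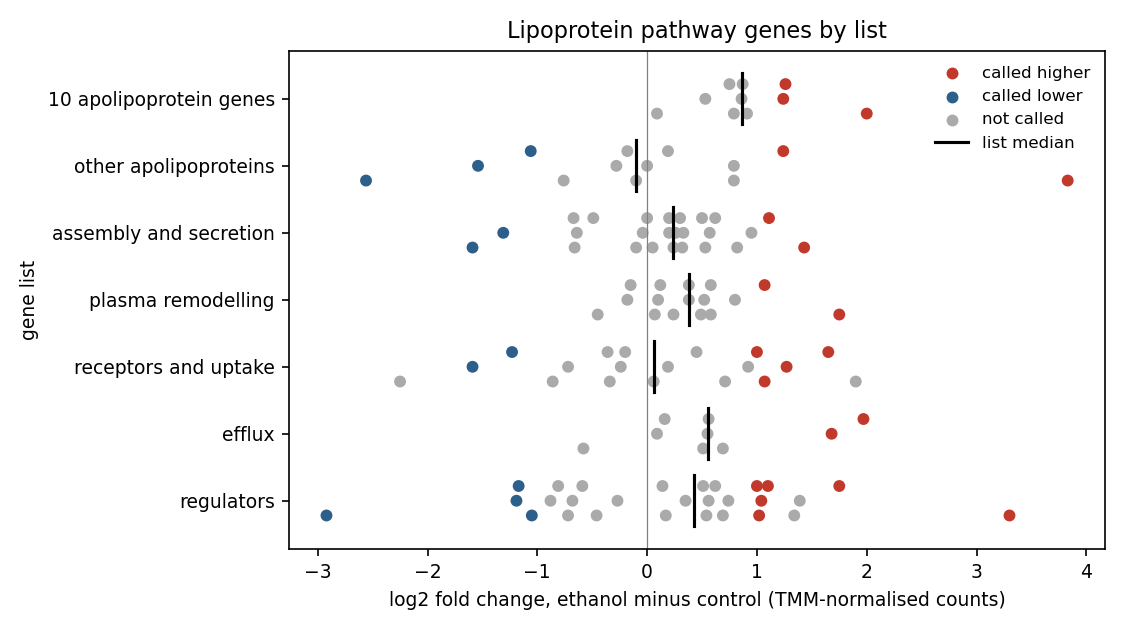
Log2 fold change of each tested gene, ethanol minus control in TMM-normalised counts, for the 10 members and 6 lists of other lipoprotein genes, with list medians as black bars. The median of the 10 members lies at 0.86 and the list medians lie between -0.10 and 0.55, and with library size alone all 6 list medians lie below 0.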

How the data were processed

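The 10 members and the lists were chosen with earlier results of these data known. For each Ensembl gene, the authors deposited a raw count of reads and, beside it, an FPKM value. The aligner, the counting software and the use of strand are not given in the sources used here, and the submitters' processing notes name GRCm38 and mm10. The table held 1 sample column of no listed library, which was not used.

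Groups came from the sample labels. Counts were filtered by filterByExpr, scaled by TMM and tested with edgeR's quasi-likelihood test (edgeR 4.0.16, R 4.3.3) over 16717 genes, with Benjamini-Hochberg adjustment over all of them and no covariates. This test had been planned should counts be present. Shares and ratios of FPKM were compared by exact two-sided permutation tests. The same code was tested on simulated data. Libraries of a group differed by far more than counting noise (chi-square over its degrees of freedom 49.6 to 496), so none was a duplicate. The labels name separate mice, and p-values measure the spread between 3 of them.

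Named genes were all members, from each list up to 4 DEGs with the largest absolute log2 fold change, and Mttp, Lcat, Lipc, Lrp1, Scarb1, Abca1, Hnf4a, Creb3l3 and Ppara whatever their change. Some results that this rule names are not reported here. Neighbours were taken by position, within 60 kb. Likeness was the Euclidean distance of centred log2 CPM over tested genes with a mean of at least 5 FPKM. The alternatives were library size alone, median-ratio size factors, DESeq2 1.42.0, no filter, limma 3.58.1 on log2(FPKM + 1) or log2(FPKM + 0.1), removal of the trend with transcript length, a replicate block, no fold threshold, and each library left out.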

Additional observations from a re-analysis of the deposited data

How the results depend on the processing

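The upregulated members numbered 3 (Apoa1, Apoa4, Apoa5) and the downregulated 0 in every fit that left out 1 library, with median-ratio size factors, DESeq2, no filter on low counts, the trend with transcript length removed and the replicate block. Removing that trend lowered Apoa2 from 0.91 to 0.52, Apoc1 from 0.87 to 0.57 and Apom from 0.53 to 0.31, and all 3 still rose. It also lowered Apoc3 from 0.86 to 0.65 and Apoa1 from 1.24 to 1.08, which both still rose, while Apoa5 had 1.28 and Apob 0.13. Apoa4 ranged from 1.66 to 2.28 with 1 library left out. With library size alone the upregulated members numbered 1, with limma on log2(FPKM + 0.1) 1, on log2(FPKM + 1) 1, on log2(FPKM + 1) without a filter 0, and with no fold threshold 9. Apob reversed to -0.57 with library size alone and to -0.59 in each limma fit, and Apom to -0.14 in all 4 of these. Over 150 fits of single members, and by adjusted p alone with the fold threshold left aside, 122 kept their direction and their side of 0.05, 20 no longer passed it and 8 reversed. All of these 20 and 8 came from library size alone or from limma on FPKM. The fits with TMM, median-ratio or DESeq2 scaling changed no member, so the pooled count hides how far most rises depend on the scaling. Apoa1 and Apoa5 are among the 122 with library size alone and with limma, where both rose but were not DEGs.

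Over all genes, 846 were upregulated with library size alone, 569 with limma on log2(FPKM + 0.1), 408 on log2(FPKM + 1), 359 on the latter without a filter and 3598 with no fold threshold. Downregulated genes numbered 5385 with library size alone, 3559 with limma on log2(FPKM + 0.1) and 3591 with no fold threshold. With 1 library left out, 1490 to 1920 genes were upregulated and 1713 to 2902 downregulated. Of the listed lipoprotein genes, 6 were upregulated and 27 downregulated with library size alone, 5 and 25 with limma on log2(FPKM + 0.1), 4 and 20 on log2(FPKM + 1) with or without a filter, 39 and 19 with no fold threshold, and 11 to 21 and 8 to 13 with 1 library left out. The cause of the shift between scalings was not tested. Same-numbered libraries did not deviate together (correlations of -0.035, -0.021 and -0.017), and with the replicate block 1518 genes were upregulated and 2000 downregulated, and 3 and 0 of the members.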
